A study of Mus musculus with 4 samples.

Results

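Subunits of the machinery that sorts cargo into lysosomes and melanosomes were followed in 4 mouse melanocyte cell lines, 10d, 13d, 9v and 14d. The 36 genes were chosen by name from the sorting complexes BLOC-1, BLOC-2, BLOC-3, AP-3, AP-1 and HOPS, together with Lyst. Of these, 35 had a probe set listed with that gene alone, among 18193 such genes on the Affymetrix arrays, and Bloc1s1 had none. Line 10d carries bcat*, a stable and transcriptionally active β-catenin made in the melanocyte lineage, and line 9v is wild-type (WT). Lines 13d and 14d are bcat* and WT by the sample labels but WT and bcat* in the study's methods, so each is given here by its line name. All lines are immortalized, stem from C57BL/6J skin of pups aged 3 days, and were kept with 200 nM of the phorbol ester TPA, which melanocytes need in culture, until 80% confluent, after G418 had been used against fibroblasts. Lines 10d and 9v are male and lines 13d and 14d female by their labels, whereas the methods name male mice. Xist, the RNA of the inactive X chromosome, had intensities of 2124 and 1768 in lines 13d and 14d and of 4 in lines 10d and 9v, and the Y-linked genes Eif2s3y, Kdm5d and Uty went the other way. Ctnnb1, which encodes β-catenin, had an intensity of 31799 in line 10d, 34368 in line 13d, 30254 in line 9v and 31844 in line 14d. The array does not separate the transgene from the endogenous gene. One array was run per line, so a difference between 2 lines has no replicate check.

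The values are GCRMA intensities on a linear scale, and where a gene had several probe sets, the brightest by mean log2 intensity was used. An intensity of 32 was taken as the detection level, which 9415 genes reached in at least 1 line. The 8 melanocyte markers were detected in every line, and their summed intensity ranged from 262266 to 279333. Of the markers of other cells, 1 of 7 for fibroblasts (Col1a2), 2 of 6 for keratinocytes (Krt10 and Cdh1), 1 of 3 for Schwann cells (Pmp22) and 0 of 4 for immune cells were detected. The other measured markers of these lists, among them Col1a1, Col3a1, Krt5, Krt14 and Mbp, were under 32 in each line. Of the detected ones, Col1a2 ran from 17 in line 14d to 175 in line 9v. Krt10 ran from 106 in line 14d to 268 in line 10d, and Cdh1 from 12 in line 9v to 272 in line 13d. The summed intensity was from 71 to 232 for the fibroblast list and from 147 to 453 for the keratinocyte list, from 22 to 3505 for the Schwann cell list and from 20 to 25 for the immune list. The Schwann cell sum was 1676 in line 10d and 22 in line 9v, almost all of it from Pmp22, a myelin protein gene, with 1646 in line 10d, 3490 in line 13d, 6 in line 9v and 1124 in line 14d. The part of these markers in the results below was not tested. Since each array measures a whole culture, fewer expressing cells and less RNA per cell cannot be told apart.

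Melanosomes are lysosome-related organelles, and their pigment enzymes are delivered from sorting endosomes. The adaptor complexes AP-1 and AP-3 select cargo such as tyrosinase into coated carriers, BLOC-1 and BLOC-2 act in tubular transport to the melanosome, and BLOC-3 is the exchange factor that activates Rab32 and Rab38. HOPS tethers late endosomes and lysosomes before fusion, and Lyst is a large BEACH-domain protein that controls the size of lysosome-related organelles. Loss of many of these genes lightens the coat of the mouse, as in muted (Bloc1s5), pallid (Bloc1s6), sandy (Dtnbp1), pearl (Ap3b1), mocha (Ap3d1), buff (Vps33a) and beige (Lyst).

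Of the 35 measured genes, 32 were detected, all of them in each line, with no value raised to the detection level. The other 3 were Ap3b2, the neuronal β subunit of AP-3, Ap1m2, the epithelial μ subunit of AP-1, and Ap1s3, a σ subunit of AP-1. Ap3b2 had an intensity of 15 and Ap1m2 of 5 in each line, and Ap1s3 lay between 21 and 27. The ubiquitous forms of the same subunits, Ap3b1, Ap1m1, Ap1s1 and Ap1s2, were among the 32 detected.

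The span of the 32 detected genes over the lines ran from 1.12-fold to 6.16-fold. The highest of the 4 intensities was at least 2 times the lowest in 8 of 32 genes, against 40.1% of all detected genes, and the median span was 1.62-fold, against 1.79-fold for all detected genes. These 8 were Bloc1s4, Bloc1s5, Ap3b1, Ap3m2, Ap3s1, Ap1m1, Ap1s2 and Lyst. Vps41 lay just inside 2-fold, with a span of 1.997, and Bloc1s4 just beyond it, with 2.06. The lowest line was 10d in 9, 13d in 11, 9v in 2 and 14d in 9 of the 32 genes, with ties in Hps6 left out, against 26.1%, 21.6%, 21.0% and 27.4% of all detected genes. The highest was line 10d in 11, 13d in 4, 9v in 7 and 14d in 10, against 28.8%, 21.4%, 19.1% and 29.6%. Line 14d lay at least 2-fold below the median of the other lines in 3 genes (Ap3b1, Ap1s2 and Lyst), against 8.75% of all detected genes. In lines 10d, 13d and 9v this held for 0 of the 32, against 8.05%, 4.94% and 3.89%. Without line 14d the count of genes that spanned 2-fold was 3 (Bloc1s5, Ap1m1 and Lyst), and without line 10d it was 5.

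**Figure D1:**
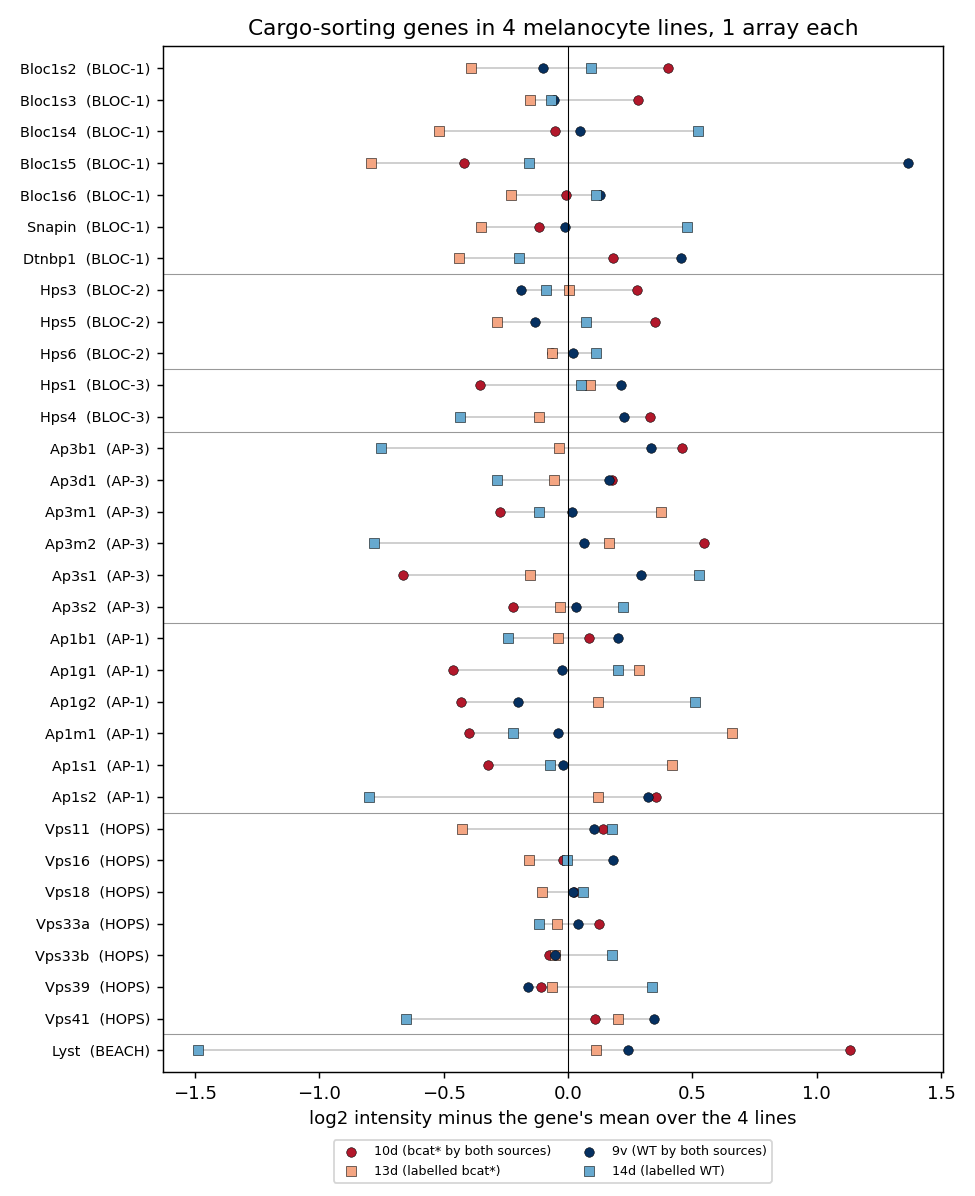
Log2 intensity of the 32 detected genes in each line, minus the gene's mean over the 4 lines (x axis), by complex; 1 array per line, so no error bars. Line 13d is the leftmost point in all 7 BLOC-1 genes. Line 14d is the leftmost in 9 genes, namely Lyst, Vps41, Ap3b1, Ap3m2, Ap1s2, Hps4, Ap3d1, Ap1b1 and Vps33a.

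Line 10d (bcat*) differed from line 9v (WT) by at least 2-fold in 1 of the 32 genes, against 17.9% of the 9131 genes detected in either line. The gene was Bloc1s5, lower in line 10d, a direction in which 10.0% of all genes passed 2-fold. In the other direction 0 of the 32 and 7.85% of all genes passed it. The shares of all genes include those on chromosomes 6 and 15, which carry none of the 32 genes. On these chromosomes the medians of lines 10d and 9v, given below, stood furthest apart. The median log2 difference of the 32 genes was -0.09, and it turned to 0.10 when each array was centred on its median, which was 2.81 in line 10d and 3.00 in line 9v on the log2 scale. Those array medians are intensities of 7 and 8, under the detection level of 32. Over detected genes, the median log2 intensity was 9.17 in both lines. The median ratio of line 10d to line 9v, as deposited, was 0.937 over the 32 genes and 1.002 over all detected genes. The ratios of the other 31 genes ran from 0.515 (Ap3s1) to 1.86 (Lyst), with 14 of the 32 higher and 18 lower in line 10d. Of 17 genes with over 1 detected probe set, 9 had all of them on the same side, and 10 of the 32 turned direction under another normalization or choice of probe sets, each with a log2 difference of at most 0.13 in size.

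**Figure D2:**
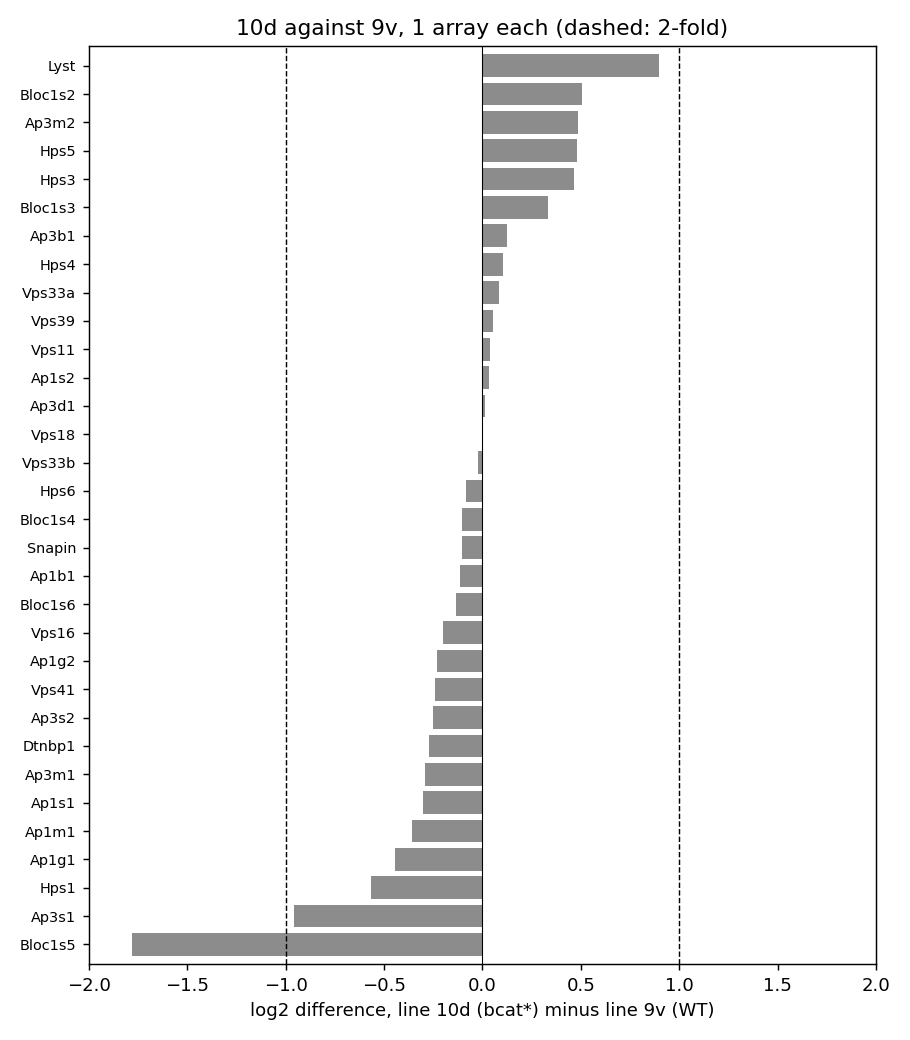
Log2 difference of line 10d (bcat*) minus line 9v (WT) for the 32 detected genes (bars, from 0), with dashed lines at 2-fold; 1 array per line. Bloc1s5 at -1.78 is beyond the lower line, and Ap3s1 at -0.96 and Lyst at 0.89 are the next in size.

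BLOC-1 holds 8 subunits, of which 7 were measured by a probe set of their own. Bloc1s5, the muted subunit, had an intensity of 293 in line 10d, 226 in line 13d, 1008 in line 9v and 351 in line 14d. Line 9v therefore stood above the other lines, with the next highest, line 14d, at 0.348 times its value. It was the highest line in 19.1% of all detected genes. The marker Pmp22 was lowest in line 9v, which lay at least 2-fold below the median of the other lines in 3.89% of all detected genes. The 2 lines that the labels give as WT thus differed from each other. The log2 difference of line 10d minus line 9v was -1.78, and Bloc1s5 has a single probe set, so no second probe set bears on it. Bloc1s4, the cappuccino subunit, had an intensity of 1830 in line 10d, 1324 in line 13d, 1964 in line 9v and 2725 in line 14d. It was highest in line 14d and lowest in line 13d, and its other detected probe set had the same order of lines.

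Line 13d had the lowest intensity of the 4 lines in 7 of 7 BLOC-1 genes, whereas it was the lowest line in 21.6% of all detected genes. The same held for the detected probe sets, of which 10 of 10 were lowest in line 13d. The distances were often small. Against the median of the other lines, line 13d lay between -0.64 (Bloc1s5) and -0.10 (Bloc1s3) on the log2 scale, and Bloc1s3 had an intensity of 100 in line 13d whereas lines 9v and 14d had 107 and 106. Dtnbp1, which encodes dysbindin, was lower in line 13d, at 1536, than in line 10d (2358), line 9v (2848) and line 14d (1815). Snapin, which also binds a SNARE protein, had 782 in line 13d, beside 918 in line 10d, 988 in line 9v and 1388 in line 14d. Bloc1s2 and Bloc1s6 showed the same low value in line 13d, with spans of 1.73-fold and 1.28-fold. The 1 probe set of Bloc1s1 is also listed with Rdh5 and names neither gene.

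The 3 subunits of BLOC-2 and the 2 of BLOC-3 spanned less than 2-fold. Hps5, the ruby-eye 2 subunit of BLOC-2, had the largest span of its complex, 1.55-fold, with an intensity of 921 in line 10d, 593 in line 13d, 660 in line 9v and 760 in line 14d. Hps3 had its highest value in line 10d, at 1432, and 1036 to 1185 in the other lines. Hps6, the third subunit, spanned 1.13-fold. Of BLOC-3, Hps4 had 1078 in line 10d, 792 in line 13d, 1003 in line 9v and 636 in line 14d. Its partner Hps1 had a ratio of line 10d to line 9v of 0.675 by its brightest probe set, which may cross-hybridize by its suffix, and of 0.948 by the other.

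Among the AP-3 genes, the 2 large subunits of the ubiquitous complex are encoded by Ap3b1 and Ap3d1. Ap3b1, the β3A subunit, had an intensity of 2751 in line 10d, 1949 in line 13d, 2522 in line 9v and 1187 in line 14d. Line 14d was thus the lowest, with line 13d, the next lowest, 1.64 times as high, and the second probe set had 457 in line 14d beside 1040 or more in the other lines. Ap3d1, the δ subunit, was also lowest in line 14d but spanned 1.38-fold. The 2 genes of the μ3 subunit differed in direction between line 10d and line 9v, with ratios of 1.40 for Ap3m2 and 0.817 for Ap3m1, while both were higher in line 13d than in line 14d. Ap3m2, the form best known from neurons, had 730 in line 10d, 560 in line 13d, 522 in line 9v and 291 in line 14d. Its other detected probe set was lowest in line 14d as well. Ap3m1, the ubiquitous form, was highest in line 13d, at 2007, and had 1279 in line 10d, 1566 in line 9v and 1429 in line 14d. Of the σ3 genes, Ap3s1 had 2463 in line 10d, 3514 in line 13d, 4784 in line 9v and 5628 in line 14d. Both lines labelled bcat* were therefore below both lines labelled WT, while Ap3s2 spanned 1.36-fold.

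AP-1 showed another order of lines. Line 10d was the lowest line in 4 of 6 detected AP-1 genes, namely Ap1g1, Ap1g2, Ap1m1 and Ap1s1, and it was the lowest in 26.1% of all detected genes. Line 13d was the highest in 3 of them, Ap1g1, Ap1m1 and Ap1s1, and in 21.4% of all detected genes. Ap1m1, the μ1A subunit that recognizes tyrosine-based signals in cargo, had an intensity of 1564 in line 10d, 3254 in line 13d, 2004 in line 9v and 1770 in line 14d. Line 13d was 1.62 times the next highest line, and the second probe set had the same highest and lowest line. Ap1g1, the γ1 subunit, had 410 in line 10d, 689 in line 13d, 557 in line 9v and 651 in line 14d. Line 10d was the lowest in each of its 3 detected probe sets. By another of these probe sets, line 14d was the highest, at 580, beside 430 in lines 13d and 9v. Ap1s2, the σ1B subunit, went otherwise. It had 4937 in line 10d, 4199 in line 13d, 4831 in line 9v and 2219 in line 14d, so that line 14d alone was apart. Its probe sets did not all follow this order, since 3 of 4 were lowest in line 14d and the other in line 10d, with 1476 there and 2050 in line 14d. Ap1g2, the γ2 subunit, had its highest value in line 14d, at 334, beside 174 in line 10d, and Ap1b1, the β1 subunit, spanned 1.36-fold.

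HOPS had the smallest median span of the complexes, 1.26-fold over the 7 genes listed for it and 1.33-fold without Vps33b, with ratios of line 10d to line 9v from 0.847 to 1.06. Vps41, which joins HOPS to AP-3 carriers in yeast, had an intensity of 2005 in line 10d, 2139 in line 13d, 2367 in line 9v and 1185 in line 14d. Line 14d was the lowest in all 3 Vps41 probe sets, and by 1 of the others the span was 2.13-fold. The core subunits Vps11, Vps16 and Vps18 were lowest in line 13d, at 270, 283 and 287, and Vps18 spanned 1.12-fold. Vps33a, the buff gene, spanned 1.18-fold, and Vps33b, which pairs with Vipas39 outside HOPS, 1.19-fold. Vps39, which binds a Rab GTPase in yeast, was highest in line 14d, at 757, beside 536 to 574 in the other lines.

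Lyst had the largest span of the 32 genes. Its intensity was 1952 in line 10d, 962 in line 13d, 1050 in line 9v and 317 in line 14d, a span of 6.16-fold. Line 10d was the highest and line 14d the lowest, with lines 13d and 9v close to each other. The second probe set kept this order, with 333 in line 10d, 134 in line 13d, 158 in line 9v and 47 in line 14d. The ratio of line 10d to line 9v was 1.86 by the first and 2.11 by the second probe set, so that whether Lyst passed 2-fold depended on the probe set.

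**Figure D3:**
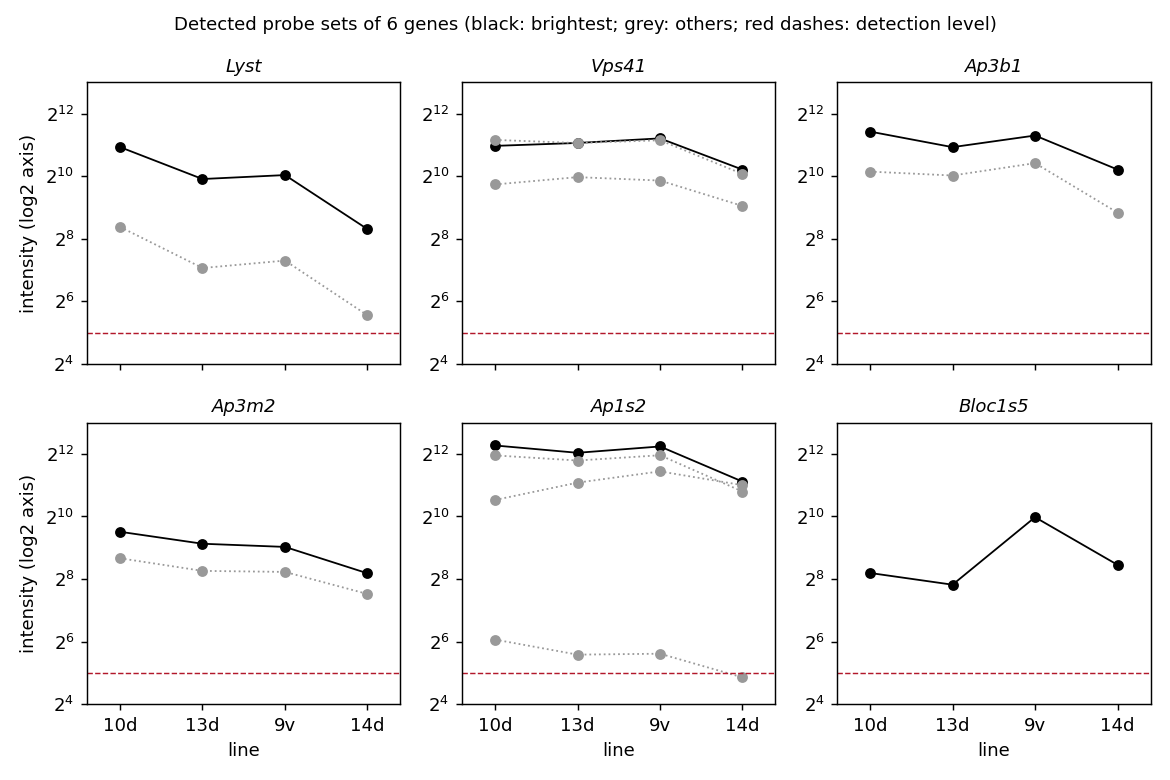
Intensity (log2 axis) of each detected probe set of 6 genes in the 4 lines, with the probe set used in black, the others in grey, and the detection level of 32 dashed; lines join the points of 1 probe set and 1 array was run per line. Line 14d is lowest in every probe set of Lyst, Vps41, Ap3b1 and Ap3m2 and in 3 of 4 of Ap1s2, while Bloc1s5 is high in line 9v alone.

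The level of a line differed between chromosomes, and some of these genes lay near the median of their chromosome while others did not. Over the 354 detected genes of chromosome 13, the median log2 difference of line 14d to the median of the other lines was -0.87, and it was -0.83 on chromosome 4 and -0.54 on chromosome 1, beside -0.20 to 0.19 on the other 17 chromosomes. Chromosome 13 carries 5 of the detected genes, Lyst, Vps41, Ap3b1, Bloc1s5 and Dtnbp1. In line 14d, Vps41 was at -0.85 and Ap3b1 at -1.09 on this scale, near the median of their chromosome, while Lyst was at -1.73. Dtnbp1 was at -0.38 and Bloc1s5 at 0.26, both above it. Ap3m2 and Ap1s2, on chromosomes 8 and X, were at -0.94 and -1.12 in line 14d, where the medians of their chromosomes were 0.00 and 0.18. In line 13d the median of chromosome 8 was 0.32, with Ap1g1 at 0.31 and Ap1m1 at 0.88. For the BLOC-1 genes in line 13d, the medians of their chromosomes lay between -0.11 and 0.04. Between lines 10d and 9v, the medians stood furthest apart on chromosomes 6 and 15. They were -0.38 in line 10d and 0.34 in line 9v on chromosome 6, and 0.32 and -0.33 on chromosome 15.

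**Figure D4:**
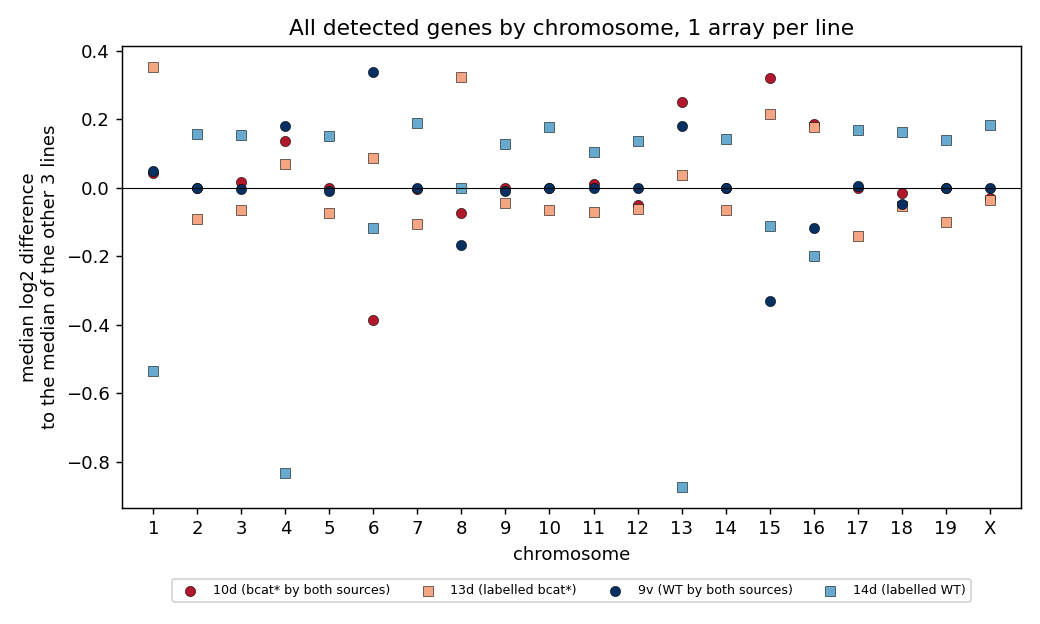
Median log2 difference of each line to the median of the other 3 lines (y axis), over the detected genes of each chromosome (x axis); 1 array per line. Line 14d is at -0.87 on chromosome 13, -0.83 on chromosome 4 and -0.54 on chromosome 1, and line 13d is at 0.32 on chromosome 8.

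In a setting chosen after these medians were seen, each line was centred on a median of each chromosome. Unlike the medians above, it was taken over each gene's log2 difference to its mean over the 4 lines. Under this centring, 6 of the 32 genes spanned at least 2-fold, against 34.5% of all detected genes. These were Lyst, with 3.17-fold, Bloc1s5, with 4.22-fold, Ap3m2, Ap1s2, Ap3s1 and Dtnbp1. Vps41 and Ap3b1 then spanned 1.25-fold and 1.26-fold, and Bloc1s4 and Ap1m1 spanned 1.82-fold and 1.62-fold. Line 13d was then the lowest in 6 of 7 BLOC-1 genes, the exception being Bloc1s3, against 20.9% of all detected genes under that centring. What sets the chromosome medians apart was not tested.

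With the genotypes as the labels give them, lines 10d and 13d (bcat*) were set against lines 9v and 14d (WT) by limma over 8892 genes with a mean log2 value of at least 5. Each labelled group then holds 1 male and 1 female line, and p-values measure the spread between these single cultures. None of the 32 genes was called higher or lower at an adjusted p of 0.05, and neither was any other gene, while 1 of the 32 and 705 of all genes (7.93%) had an unadjusted p under 0.05. The gene was Ap3s1, with a mean log2 value of 11.52 in labelled bcat* lines and 12.34 in labelled WT lines (n = 2 lines each), a difference of -0.82 ± 0.27 (SE, limma adjusted p = 0.610). Bloc1s5 differed by -1.21 ± 0.60 (SE, limma adjusted p = 0.695) and Lyst by 1.25 ± 0.73 (SE, limma adjusted p = 0.708). The labelled groups did not overlap in 10 of the 32 genes, against 39.7% of all genes. Of these 10, 2 were higher and 8 lower in bcat*, against 19.3% and 20.4% of all genes. The 8 lower genes included 4 of BLOC-1 (Bloc1s4, Bloc1s5, Bloc1s6 and Snapin). With lines 13d and 14d exchanged, as the methods give them, no gene was called either, 0 of the 32 had an unadjusted p under 0.05, and 9 did not overlap, against 31.6% of all genes. Of these 9, 4 were higher and 5 lower in bcat*, against 17.0% and 14.6%. Bloc1s4, Bloc1s5, Bloc1s6, Snapin and Ap3s1 were not among these 9.

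Genes that work beside these complexes were given by a list of 64, of which 58 were detected in line 10d or 9v. Between line 10d (bcat*) and line 9v (WT), 2 of the 58 passed 2-fold upwards and 3 downwards, where 7.85% and 10.0% of all detected genes did. The higher genes were Ap5z1, a subunit of the AP-5 complex, with 370 in line 10d and 167 in line 9v, and Gga1, a clathrin adaptor of the trans-Golgi network, with 127 in line 10d and 55 in line 9v. The lower were Arf5, a small GTPase of coat assembly, with 151 in line 10d and 504 in line 9v, Gga2, with 750 in line 10d and 1899 in line 9v, and Borcs6, a subunit of the BORC complex that shares proteins with BLOC-1, with 43 in line 10d and 90 in line 9v. Borcs6 had its highest value in line 14d, at 238. Arf5 lies on chromosome 6, whose median was -0.38 in line 10d and 0.34 in line 9v. Gga1 lies on chromosome 15, with 0.32 in line 10d and -0.33 in line 9v. Ap5z1, Gga2 and Borcs6 lie on chromosomes 5, 7 and 11, with medians between -0.01 and 0.01 in these lines. The part of the chromosome in these differences was not tested. None of the listed genes of AP-2, AP-4, clathrin and the retromer, nor the BEACH genes other than Lyst, reached 2-fold, and their ratios lay between 0.642 (Nbeal1) and 1.33. Rab32 and Rab38, on which BLOC-3 acts, had ratios of 1.23 and 1.24. Kif13a, the kinesin that works with AP-1 in melanocytes, had 520 in line 10d, 453 in line 13d, 383 in line 9v and 168 in line 14d. The light chain Cltb of clathrin was also low in line 14d, at 674, beside 1301 to 1730 in the other lines, and both Kif13a and Cltb lie on chromosome 13. Gga1, Rab32, Rab38, Kif13a and Oca2 were named after their values were seen. The 9 measured cargo genes of the melanosome had ratios from 0.715 (Atp7a) to 1.65 (Slc45a2), and Oca2, which had 16985 in line 10d, 4710 in line 13d, 12182 in line 9v and 5931 in line 14d, had the largest span, 3.61-fold. Slc45a2 lies on chromosome 15, as Gga1 does.

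The sequences around the transcript starts were searched for short motifs. RefSeq windows of 300 bases on GRCm38.p6, from 250 before to 50 after a transcript start, were at hand for 28 of the 36 genes (29 windows). They were searched on both strands for CACGTG, the E-box core bound by MITF and the related TFE factors, for CATGTG, the other E-box form bound by MITF, and for the core letters of Tcf/Lef sites, CTTTGA in its first form and, with another last letter, CTTTGT. The first E-box form reads the same on both strands, and no match overlapped another in the windows of these genes. A match is a description of the letters and not a binding site. The windows of the 4 genes below are printed because Lyst and Bloc1s5 had the largest spans and Vps41 and Ap1s2 were low in line 14d, with both E-box forms in capitals on whichever strand they were found.
Lyst, chr13:13590159-13590458, + strand: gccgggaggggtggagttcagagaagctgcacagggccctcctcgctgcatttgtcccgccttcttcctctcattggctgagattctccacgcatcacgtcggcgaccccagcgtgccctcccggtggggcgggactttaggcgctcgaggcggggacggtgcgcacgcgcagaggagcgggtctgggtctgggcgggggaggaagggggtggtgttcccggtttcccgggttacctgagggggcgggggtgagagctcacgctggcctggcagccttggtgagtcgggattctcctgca
Bloc1s5, chr13:38635043-38635342, - strand: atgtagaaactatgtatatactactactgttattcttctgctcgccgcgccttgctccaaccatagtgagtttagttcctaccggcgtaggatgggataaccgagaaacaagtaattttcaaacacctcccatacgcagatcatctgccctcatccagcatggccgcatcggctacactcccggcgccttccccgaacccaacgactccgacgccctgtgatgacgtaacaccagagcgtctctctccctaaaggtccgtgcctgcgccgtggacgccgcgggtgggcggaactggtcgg
Vps41, chr13:18717042-18717341, + strand: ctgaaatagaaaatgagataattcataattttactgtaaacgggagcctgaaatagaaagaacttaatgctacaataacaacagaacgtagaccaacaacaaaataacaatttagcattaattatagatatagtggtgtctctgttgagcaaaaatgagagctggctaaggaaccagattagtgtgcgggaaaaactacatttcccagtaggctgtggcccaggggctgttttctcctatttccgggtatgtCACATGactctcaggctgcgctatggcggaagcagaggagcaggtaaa
Ap1s2, chrX:163908767-163909066, + strand: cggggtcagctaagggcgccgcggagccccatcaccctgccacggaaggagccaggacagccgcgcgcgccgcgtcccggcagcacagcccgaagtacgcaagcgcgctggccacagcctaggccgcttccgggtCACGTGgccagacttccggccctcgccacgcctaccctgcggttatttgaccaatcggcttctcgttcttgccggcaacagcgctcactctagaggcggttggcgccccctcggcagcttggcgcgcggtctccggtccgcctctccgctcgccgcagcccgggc
The windows of Lyst and Bloc1s5 held none of the 4 motifs, that of Vps41 held CATGTG on the other strand and that of Ap1s2 held CACGTG. Neither Tcf/Lef core was found in any of these 4 windows. Those of Bloc1s5 and Ap1s2 lie at a transcript start inside the RefSeq bounds of the gene. The outer starts of these genes were therefore not searched, and a missing match there is not known.

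CACGTG was found in the windows of 8 genes, that is in 27.6% of the 29 windows, against 7.15% of all 32851 windows and 10.4% of the 9987 windows of genes detected on the arrays. The median number of CG pairs was 20 in the members' windows and 21 in those of detected genes. The other motifs were in 13.8% (CATGTG), 10.3% (CTTTGA) and 6.90% (CTTTGT) of the members' windows, against 8.04%, 11.4% and 12.7% of the windows of detected genes and 4650, 5257 and 6147 of all 32851 windows. In 6 of the 8 genes a CACGTG began within the 28 bases before the start. Over the last 100 bases of the window, 20.7% of the 29 windows held it, against 4.56% of the windows of detected genes and 2.92% of all windows. The 28 bases were read off these same matches, and the 100 bases take in the same 6 genes. These shares therefore describe the matches again and are no separate result. Distances are to the start used for each window, and a gene can have other starts. The 60 bases around the match nearest to the start are printed for the genes other than Ap1s2, with the same capitals, to show the letters they share.
Bloc1s1, chr10:128923495-128923554, - strand: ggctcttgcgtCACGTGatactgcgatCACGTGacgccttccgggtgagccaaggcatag
Bloc1s3, chr7:19508346-19508405, - strand: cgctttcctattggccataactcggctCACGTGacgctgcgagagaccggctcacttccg
Hps3, chr3:20035293-20035352, - strand: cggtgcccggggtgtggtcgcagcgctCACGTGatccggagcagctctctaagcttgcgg
Hps5, chr7:46796041-46796100, - strand: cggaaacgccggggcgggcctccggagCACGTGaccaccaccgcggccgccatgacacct
Hps1, chr19:42779947-42780006, - strand: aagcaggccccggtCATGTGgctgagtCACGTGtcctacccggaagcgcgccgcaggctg
Vps16, chr2:130424275-130424334, + strand: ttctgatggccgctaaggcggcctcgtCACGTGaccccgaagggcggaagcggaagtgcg
Vps33a, chr5:123572995-123573054, - strand: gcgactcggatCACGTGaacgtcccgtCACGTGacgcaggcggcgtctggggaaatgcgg
These genes belong to BLOC-1, BLOC-2, BLOC-3 and HOPS, and no AP-3 window held the motif. The motif occurred 2 times in the windows of Vps33a, Bloc1s1 and Hps5. Of the 7 measured genes with CACGTG, Ap1s2 was the 1 that spanned at least 2-fold over the 4 lines, against 8 of the 32 detected genes and 40.1% of all detected genes. A count over 7 genes does not show whether genes with the motif differ in span.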

How the data were processed

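RNA of 4 melanocyte lines had been hybridized to Affymetrix arrays, 1 per line. The authors normalized the arrays with GCRMA, and the deposited values are intensities on a linear scale in whole numbers, with a lowest value of 2. For the version of GCRMA and a genome build, the sources used here give nothing. Depth has no meaning for arrays, and their number limits the precision.

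Of 45037 probe sets, 34945 were listed with 1 gene in the platform annotation, 932 with several and 9160 with none. Symbols were taken from that annotation, and a gene was read from its brightest probe set by mean log2 intensity. Values under 32 (log2 of 5) were raised to 32 before fold changes were taken. Lines 10d and 9v, whose genotype the labels and the methods give alike, were compared with no test. The labelled genotypes were compared with limma 3.58.1 in R 4.3.3 (lmFit, eBayes with trend, Benjamini-Hochberg adjustment over all tested genes). The procedure was tested on simulated data with a smaller spread and larger changes than the 32 genes showed. That test therefore gives no measure of its power for these genes. Tables were made with Python 3.11.15 and pandas 2.3.3. Chromosomes and promoter windows came from RefSeq on GRCm38.p6.

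Values in all lines are given for genes that span at least 2-fold over the lines, differ by 2-fold between lines 10d and 9v, or have the largest span of their complex, and for some others where a sentence turns on them. Of each list of neighbouring genes, up to 2 with the largest difference were eligible. The genes, lists and tests were chosen with earlier results of these data known. Alternatives were other detection levels, fold thresholds, summaries of probe sets, normalizations and limma settings, each line left out in turn, and the sex label as a block.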

Additional observations from a re-analysis of the deposited data

Results flagged for a closer look

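The probe set of Bloc1s1, a BLOC-1 subunit, was left out of the comparisons because it is also listed with Rdh5, the neighbouring retinol dehydrogenase gene. It carried a clear signal, with an intensity of 3136 in line 10d, 2063 in line 13d, 1804 in line 9v and 3114 in line 14d. The ratio of line 10d (bcat*) to line 9v (WT) was 1.74, and line 13d was not its lowest line, unlike the 7 BLOC-1 genes with a probe set of their own. Which of both genes gave the signal was not tested.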

How the results depend on the processing

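The count of genes at least 2-fold higher in line 10d than in line 9v was 1 in place of 0 after centring the arrays on their medians, which are 7 in line 10d and 8 in the other lines, and 1 at a threshold of 1.5-fold. Those medians lie under the detection level of 32, whereas the median over detected genes was the same in lines 10d and 9v. The median log2 difference was 0.10 after that centring, and from -0.13 to -0.07 under the other settings. At 1.5-fold the count of lower genes was 2 in place of 1. The number that spanned the threshold over the 4 lines was 8, and it was 5 when a gene's probe sets were averaged, 19 at 1.5-fold and 2 at 3-fold. With a line left out it ranged from 3 (without line 14d) to 7 (without line 9v), with 5 without line 10d and 6 without line 13d. The 124 recomputed differences of single genes between lines 10d and 9v each moved by less than 1.5-fold. For part of them this was fixed in advance. Centring on the array medians shifts every gene by the same amount, which is under 1.5-fold. Genes with a single probe set keep their value under the settings on probe sets or drop out of them. Of the 124, 14 turned sign, in 10 genes whose difference was small (at most 0.13 in size on the log2 scale). Bloc1s5 was between -1.80 and -1.59 over 4 settings. Those on probe sets could not change it, because it has 1 probe set. Limma called 0 of the genes under each alternative, with 0 to 2 at an unadjusted p under 0.05. Over all genes it called 20 higher and 212 lower with no filter on low values, 4 higher and 4 lower with probe sets averaged, and 5 higher and 1 lower without the trend, against 0 otherwise. The causes were not tested. No paired analysis was possible because the labels number no replicates and name no shared origin. The sex label matches lines across the labelled groups, and with it as a block 0 of the genes were called, with 2 at an unadjusted p under 0.05. With 1 array per line, differences between 2 lines have no error, and values near the detection level of 32 carry little signal above background.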
